A study of Homo sapiens with 9 samples.

Results

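The extrinsic route to apoptosis was followed through 10 genes, chosen by symbol from the 23284 gene symbols measured: the ligand gene TNFSF10, the death receptor gene FAS, the 4 TRAIL receptor genes TNFRSF10A, TNFRSF10B, TNFRSF10C and TNFRSF10D, the initiator caspase gene CASP8, and APAF1, XAF1 and DAPK1. All 10 were found under a single entry. All 10 passed the limit on low values, which is low for these data and does not show adequate depth. RNA-Seq was performed on HT-29, a cell line grown from a human colorectal adenocarcinoma. Triplicate cultures received DMSO vehicle alone (0 µM, the control), 5 µM 5-Aza-deoxycytidine (5-Aza) or 10 µM 5-Aza for 5 days, and no other agent or genetic change is given. Because all 9 cultures are of 1 cell line, the replicates measure spread between cultures and not between tumors.

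TRAIL, the protein made from TNFSF10, and Fas ligand kill cells by binding death receptors on the cell surface, which assemble a complex that activates caspase-8. Decoy receptors also bind TRAIL but lack a working death domain. APAF1 scaffolds the apoptosome downstream of mitochondria, XAF1 binds the caspase inhibitor XIAP, and DAPK1 is a calcium/calmodulin-regulated kinase linked to interferon-driven death. 5-Aza is incorporated into DNA and traps DNA methyltransferases, and several genes of the route are textbook cases of genes that can be silenced by promoter methylation in tumors. DNA methylation was not measured in these cultures.

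Windows around annotated start sites are shown because methylation in human cells falls mainly on CG dinucleotides, and the 6 genes with a window range from CG-poor to CG-rich. Windows of 300 bases (250 before the start and 50 after) were found for 6 of the 10 genes in a RefSeq table of GRCh38.p14, and each had 1 exact match in GRCh37, whose coordinates are given here. Capitals mark CG in all windows except that of TNFSF10, where they mark matches to TTCNNTTTC, the reverse complement of GAAANNGAA, a core letter pattern of sites for interferon regulatory factors. The first pair belongs to XAF1, at chr17:6658516-6658815 and chr17:6659115-6659414 on the plus strand, the third window to TNFSF10, at chr3:172241171-172241470 on the minus strand, the next to FAS, at chr10:90750305-90750604 on the plus strand, and the last to DAPK1, at chr9:90112532-90112831 on the plus strand.
XAF1 window 1: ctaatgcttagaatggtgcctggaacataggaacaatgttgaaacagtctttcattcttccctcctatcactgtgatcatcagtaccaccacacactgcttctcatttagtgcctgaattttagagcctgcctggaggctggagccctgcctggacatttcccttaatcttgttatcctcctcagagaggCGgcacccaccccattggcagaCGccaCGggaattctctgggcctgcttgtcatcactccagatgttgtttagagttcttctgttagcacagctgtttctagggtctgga
XAF1 window 2: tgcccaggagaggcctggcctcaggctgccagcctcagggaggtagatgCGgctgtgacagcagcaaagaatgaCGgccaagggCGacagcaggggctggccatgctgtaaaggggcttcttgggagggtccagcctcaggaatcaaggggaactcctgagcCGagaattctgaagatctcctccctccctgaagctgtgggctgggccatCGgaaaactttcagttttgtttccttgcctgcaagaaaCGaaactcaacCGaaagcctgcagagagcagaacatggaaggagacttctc
TNFSF10 window 1: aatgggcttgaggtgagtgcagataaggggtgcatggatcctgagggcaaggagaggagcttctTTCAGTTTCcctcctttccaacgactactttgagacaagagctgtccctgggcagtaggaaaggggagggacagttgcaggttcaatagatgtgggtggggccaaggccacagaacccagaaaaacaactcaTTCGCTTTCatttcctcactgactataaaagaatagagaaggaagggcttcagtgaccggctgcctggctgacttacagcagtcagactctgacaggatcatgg
FAS window 1: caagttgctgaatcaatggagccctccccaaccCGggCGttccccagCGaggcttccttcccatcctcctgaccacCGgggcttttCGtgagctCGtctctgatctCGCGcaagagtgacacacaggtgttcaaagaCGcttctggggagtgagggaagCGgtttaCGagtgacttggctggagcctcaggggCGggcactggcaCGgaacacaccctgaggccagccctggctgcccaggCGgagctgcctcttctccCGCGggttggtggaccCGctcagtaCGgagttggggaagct
DAPK1 window 1: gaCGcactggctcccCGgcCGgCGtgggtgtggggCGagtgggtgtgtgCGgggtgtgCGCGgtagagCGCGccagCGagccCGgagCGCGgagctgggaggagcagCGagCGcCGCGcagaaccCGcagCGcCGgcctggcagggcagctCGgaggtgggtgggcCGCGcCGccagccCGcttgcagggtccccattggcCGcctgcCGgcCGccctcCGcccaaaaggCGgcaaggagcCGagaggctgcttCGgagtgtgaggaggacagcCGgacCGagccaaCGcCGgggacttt

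The XAF1 windows held 3 and 7 CG dinucleotides and the TNFSF10 window held 3, against a median of 14 over all 35116 windows of the table. The 3 FAS windows held 18, 14 and 22, and the 3 CASP8 windows held 6, 5 and 6. DAPK1 had 37 and 33 and APAF1 had 42, above the upper quartile of 28. The pattern GAAANNGAA was searched on both strands and occurred in 2847 windows (8.11%). TNFSF10 had 2 matches, with first bases at -186 and -54 from the start, and the first CASP8 window had 1, at -2. These letters were not in the windows of FAS, DAPK1, APAF1 or XAF1. A match is a run of letters and was not tested as a binding site.

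**Figure D1:**
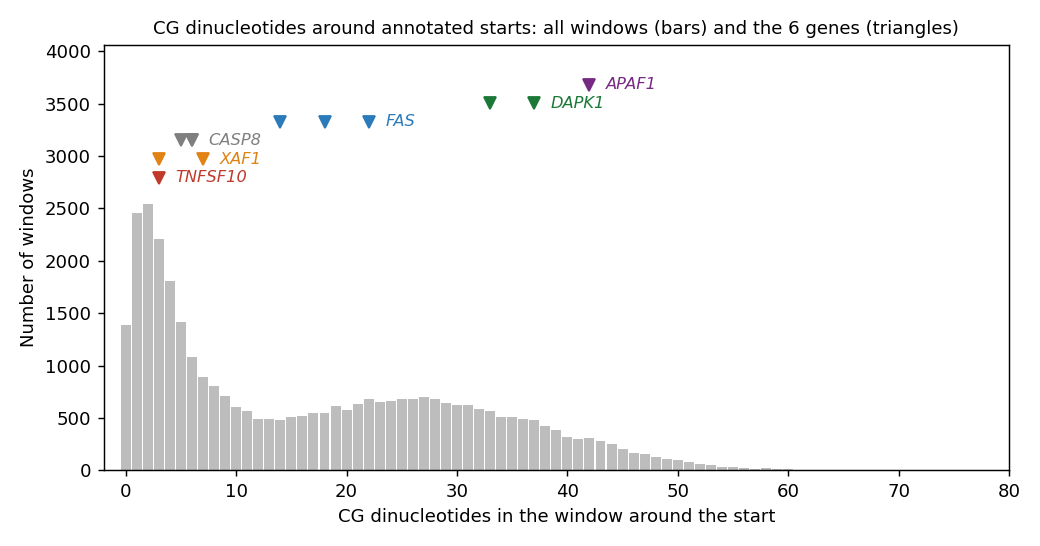
Number of CG dinucleotides (x axis) in 300-base windows around annotated starts, with the number of windows on the y axis. Grey bars are all 35116 windows and triangles are the windows of 6 of the 10 genes, from 3 CG in TNFSF10 to 42 in APAF1.

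The deposited values are FPKM (fragments scaled by transcript length and library size) per gene, used as relative values because those of a library sum to between 3.69e+09 and 5.91e+09. Depth estimated from the steps of low values was about 15732207 to 29456202 fragments per control library, 27614848 to 32340962 at 5 µM and 11831432 to 25651574 at 10 µM. All 11 colon epithelial markers were above 0 in every library, and their summed FPKM was 9.03e+07 to 1.09e+08 in the control, 3.77e+07 to 4.24e+07 at 5 µM and 2.96e+07 to 5.21e+07 in the 10 µM cultures. The summed level of 5 leukocyte markers was 1.58e+05 to 1.77e+05 in the control, with CD3E at 0, 6.90e+05 to 7.35e+05 at 5 µM and 2.32e+05 to 3.95e+05 in the 10 µM cultures. The sums of 5 fibroblast markers (2.25e+04 to 3.22e+04, 8.18e+04 to 8.86e+04 and 4.47e+04 to 5.20e+04) and of 4 endothelial markers (1.90e+03 to 5.03e+03, 9.84e+03 to 1.24e+04 and 3.27e+03 to 3.59e+03) were also higher at 5 µM than in the control. At 10 µM the fibroblast sums lay above the control and the endothelial sums lay within its range. The part of these markers in the results was not tested. DCN at 5 µM, COL1A2 at 10 µM, CDH5 and KDR in the control and KDR at 10 µM were at 0 in all 3 libraries. Since these are bulk samples, a lower number of cells making a transcript and less of it per cell cannot be told apart.

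At 5 µM vs. 0 µM, the ligand gene TNFSF10, the receptor genes FAS and TNFRSF10C, and XAF1 rose more than 2-fold. The receptor genes TNFRSF10A and TNFRSF10D stood at about 0.52 and 0.51 of their control means, CASP8 had equal means, and no gene of the 10 was called down. A gene was called when its Benjamini-Hochberg adjusted p from limma, over all genes tested, was at most 0.05 and its log2 difference was above 1 or below -1. The share called up was 4 of 10, beside 14.1% of all 20051 genes tested, and the share called down was 0 of 10, beside 2.17%. Without the fold limit, 6 of 10 had an adjusted p within the threshold and were higher (21.3% of all genes) and 3 of 10 were lower (17.7%). All 3 values at 5 µM lay above all 3 control values for 6 genes (29.4% of all genes) and below them for 3 genes (23.2%). The median log2 difference was 0.54 over the 10 genes and 0.14 over all genes tested.

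Between 5 and 10 µM none of the 10 genes was called in either direction by limma, where 0.129% of all 20085 genes tested were called up and 4.82% down. No gene of the 10 had an adjusted p within 0.05, compared with 0.319% of all genes upward and 5.85% downward. DAPK1 came nearest, with an adjusted p of 0.0513. The 10 µM values lay below every 5 µM value for FAS, TNFRSF10D, DAPK1 and APAF1 (25.3% of all genes), and above them for 0 of 10 (4.37%). The median log2 difference of genes above 0 in all 6 libraries was -0.24 in this comparison. The median over the 10 genes was -0.32 and that over all genes tested was -0.31.

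At 10 µM vs. 0 µM, XAF1 was called up and TNFRSF10D was called down. FAS and TNFRSF10C had log2 differences of 1.16 and 1.85 but were not called (limma adjusted p of 0.112 and 0.0629). The share called up was 1 of 10 (4.07% of all 18928 genes tested) and the share called down was 1 of 10 (3.40%). On the adjusted p alone, 1 of 10 was higher (5.39% of all genes) and 2 of 10 were lower (9.71%), the second being TNFRSF10A. For FAS, TNFRSF10C, TNFSF10 and XAF1 the lowest 10 µM value exceeded the highest control value (14.4% of all genes), and the reverse held for TNFRSF10A, TNFRSF10B, TNFRSF10D and DAPK1 (26.7%). The median of genes above 0 in all 6 libraries was -0.23 here, while the median over the 10 genes was -0.16 and that over all genes tested was -0.15. These comparisons share libraries, so the treated groups were not set against the control independently.

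**Figure D2:**
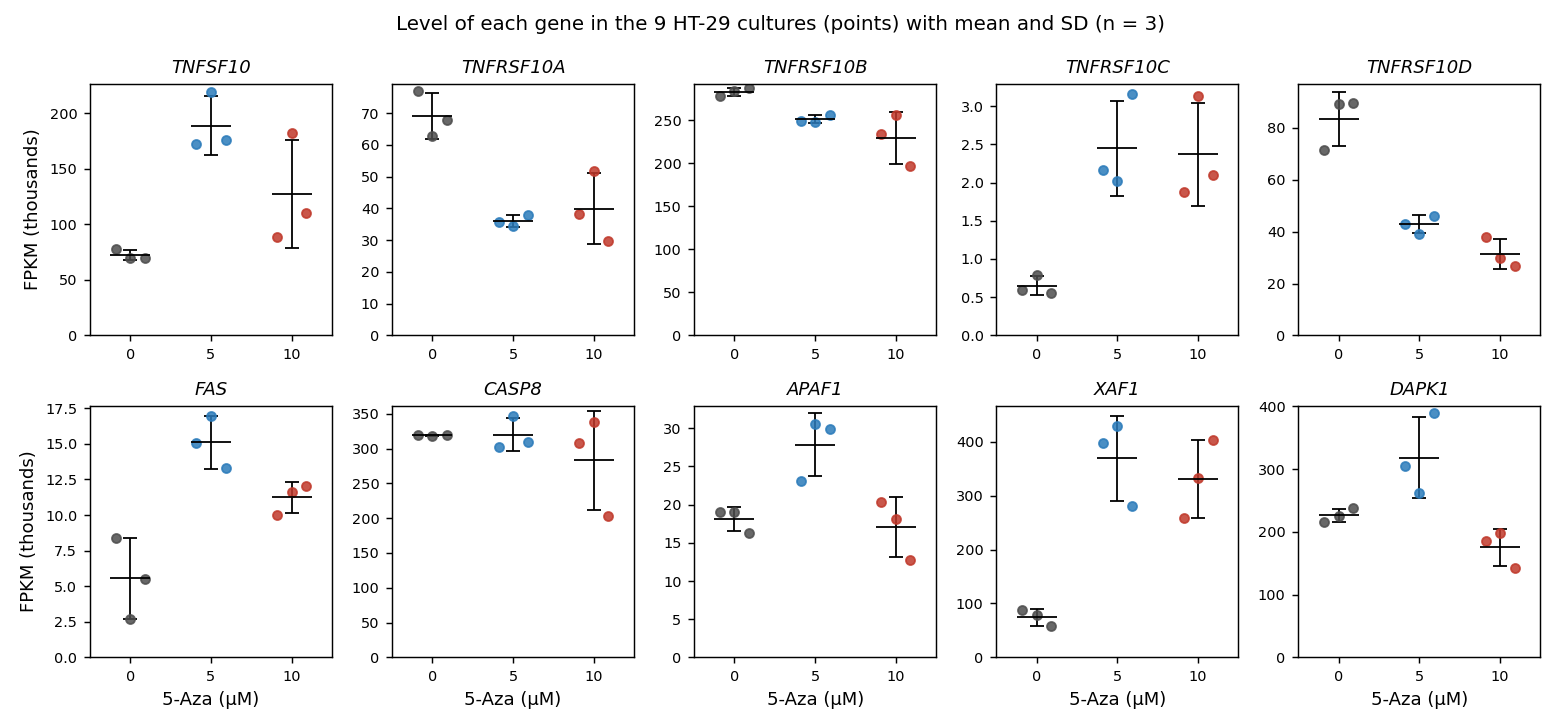
FPKM divided by 1000 (y axis, from 0) for each of the 10 genes at 0, 5 and 10 µM 5-Aza (x axis). Points are single cultures, the wide bar is the mean and the whiskers are the SD of 3 cultures, and XAF1, TNFSF10, FAS and TNFRSF10C lie above the control in every treated culture.

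TNFSF10 encodes TRAIL, the only ligand among the 10 genes, and lies on chromosome 3 from 172223298 to 172241265 on the minus strand (GRCh37, as are all gene positions here). Its FPKM was 77342.5, 69613 and 70110 in the control cultures, 172007, 219104 and 175501 at 5 µM, and 88841, 182214 and 110580 at 10 µM. Every treated culture lay above every control culture, and at 10 µM the second culture stood within the 5 µM range while the first lay close to the control. By group, the mean ± SD of 3 cultures was 72355 ± 4327, 188871 ± 26240 and 127212 ± 48860. TNFSF10 rose at 5 µM by a log2 difference of 1.38 (standard error 0.11, limma adjusted p = 0.000454), a ratio of means of 2.61. Against the control, the 10 µM cultures differed by 0.75 (95% interval 0.15 to 1.35, limma adjusted p = 0.0842), and against the 5 µM cultures by -0.63 (interval -1.26 to 0.0001, adjusted p = 0.202). Of 17 alternative settings that test against a difference of 0, 1 gave the difference from 5 µM a limma adjusted p within 0.05. That was without 10 µM replicate 2 (-0.92, adjusted p = 0.0169), and the highest adjusted p was 0.464. The 10 µM difference from the control had an adjusted p within 0.05 in 4 of 17, and the highest was 0.216. It was 0.99 with median-of-ratios scaling (adjusted p = 0.0122) and 1.13 with total scaling (adjusted p = 0.00655). The window of this gene, shown above, is the CG-poor one with the pair of interferon-type letter matches.

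The TRAIL receptor genes stand beside each other on chromosome 8. TNFRSF10B (22877646 to 22926544) encodes DR5 and TNFRSF10A (23047965 to 23082615) encodes DR4, both receptors that carry a death domain, while TNFRSF10C (22960434 to 22974958) encodes the lipid-anchored decoy DcR1 and TNFRSF10D (22993101 to 23021540) encodes DcR2, a decoy with a truncated death domain. FPKM is scaled for transcript length, so the levels of the 4 genes can be set side by side. In the control the order was TNFRSF10B, TNFRSF10D, TNFRSF10A and TNFRSF10C. TNFRSF10D and TNFRSF10A were near neighbours, 83471 ± 10230 (SD, n = 3) and 69166 ± 7162 (SD, n = 3), with overlapping values. TNFRSF10C was lower than the others by a wide margin, with a mean of 647 FPKM.

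TNFRSF10A measured 76898, 62758 and 67844 FPKM in the control, 35680, 34509 and 37979 at 5 µM, and 38255, 51875 and 29739 at 10 µM. All 6 treated values lay below all control values. The log2 difference was -0.94 at 5 µM (standard error 0.11, limma adjusted p = 0.00116) and -0.82 at 10 µM (standard error 0.22, adjusted p = 0.0492), both within the 2-fold limit. The difference at 10 µM kept an adjusted p within 0.05 in 7 of 17 alternative settings (those that test against a difference of 0), and that at 5 µM in 17 of 17. TNFRSF10A shares 224 and 266 exon bases with a pair of noncoding genes on the opposite strand, whose part in its values was not tested.

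TNFRSF10D measured 71664, 89144 and 89606 FPKM in the control, 43065, 39190 and 46146 at 5 µM, and 37953, 29735 and 26592 in the 10 µM cultures. The 3 groups did not overlap. The decoy receptor gene fell at 10 µM vs. 0 µM by 1.42 on the log2 scale (standard error 0.19, limma adjusted p = 0.00781), a ratio of means of 0.376, and the adjusted p was within 0.05 in 17 of 17 alternatives. Relative to the median of genes above 0 in all 6 libraries, the same difference was -1.18. The 5 µM difference was -0.96 (standard error 0.12, adjusted p = 0.00173), just inside the 2-fold limit, and from 5 to 10 µM it was -0.46 (interval -0.89 to -0.0235, adjusted p = 0.185).

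TNFRSF10B, the most abundant of the 4, measured 277783, 283356 and 287507 FPKM in the control, 249511, 248175 and 255931 at 5 µM, and 234293, 255813 and 196603 at 10 µM. All treated values lay below the control values, by a ratio of means of 0.888 at 5 µM. The log2 difference at 5 µM was -0.17 (standard error 0.053, limma adjusted p = 0.0455). It had an adjusted p within 0.05 in 6 of 17 alternatives and changed sign to 0.12 when libraries were scaled by their FPKM total. The 10 µM difference from the control was -0.31 (adjusted p = 0.138), and 0.065 with total scaling. The gene shares 377 exon bases with RHOBTB2 on the opposite strand, at 12470 FPKM in the control, and no source used here says whether the libraries kept strand.

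TNFRSF10C measured 595, 789 and 558 FPKM in the control, 2168, 2022 and 3163 at 5 µM, and 1874, 3133 and 2099 in the 10 µM cultures. The treated values lay above all control values. In units of the value in control replicate 1, corrected for the normalization of each library, they were 1, 2 and 2 in the control, 8.76, 7.76 and 13.7 at 5 µM, and 4, 10.6 and 6 at 10 µM, so those of the 5 µM libraries and of 10 µM replicate 2 were not whole. Rounded to the nearest whole, they summed to 5 units over the control libraries, 31 at 5 µM and 21 in the 10 µM cultures. The TNFRSF10C rate per unit of normalization was 3.96 times the control rate at 5 µM (exact 95% interval 1.53 to 13.1) and 3.92 times at 10 µM (1.44 to 13.3), intervals that rest on the rounded sums and cover counting error only. By limma TNFRSF10C rose at 5 µM by 1.91 on the log2 scale (standard error 0.43, adjusted p = 0.0148). The 10 µM difference was 1.85 (standard error 0.56, adjusted p = 0.0629), and the gene was called there in 5 of 16 alternatives. Between the treated groups the difference was -0.057 (interval -1.05 to 0.94). TNFRSF10C shares 249 and 261 exon bases with a pair of other annotated genes on the same strand, whose part in its values was not tested.

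Within a library, the share of each gene in the summed FPKM of the 4 TRAIL receptor genes does not depend on the scaling of libraries. These shares were chosen after the values were seen and are given without a test. TNFRSF10B made up 65.1%, 65.0% and 64.5% of the sum in the control, 75.5%, 76.6% and 74.6% at 5 µM, and 75%, 75.1% and 77.1% at 10 µM. TNFRSF10C and TNFRSF10D, the decoys among these 4 genes, together made up 16.9%, 20.6% and 20.2% in the control. Their share was 13.7%, 12.7% and 14.4% at 5 µM, and 12.7%, 9.65% and 11.3% in the 10 µM cultures. The control shares thus did not overlap those of the treated cultures for either quantity. TNFRSF10C alone was never above 0.922% of the summed FPKM of the 4 genes.

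**Figure D3:**
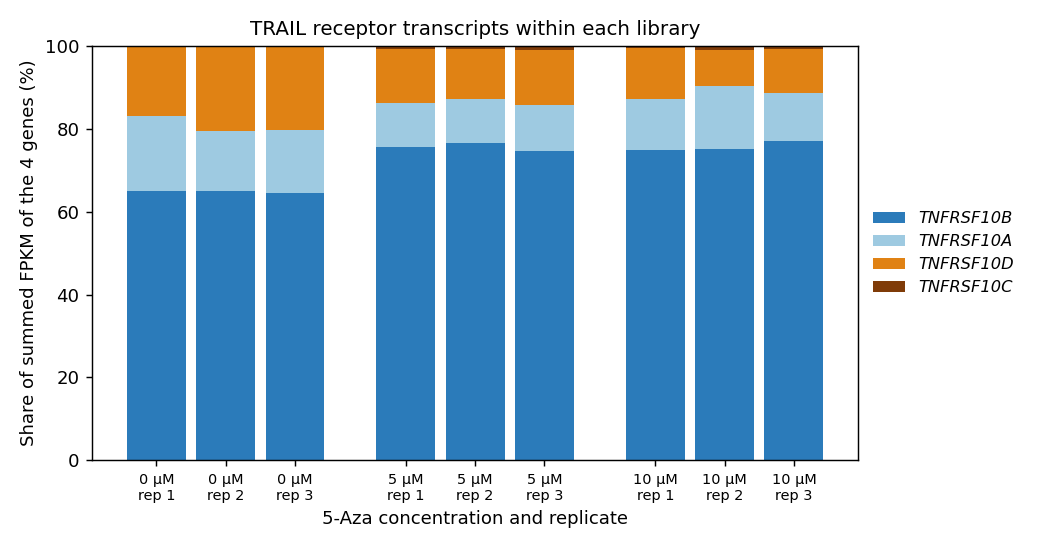
Share in percent (y axis) of each TRAIL receptor gene in the summed FPKM of the 4 genes, for each of the 9 cultures (x axis). TNFRSF10B takes between 64.5% and 65.1% of the control bars and between 74.6% and 77.1% of the treated bars, TNFRSF10D is narrower in the treated bars, and TNFRSF10C is a thin band at the top.

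FAS, on chromosome 10 from 90750414 to 90775542 on the plus strand, encodes the receptor of Fas ligand. Its FPKM was 8399, 2720 and 5536 in the control, 15063, 16973 and 13296 at 5 µM, and 10035, 11642 and 12056 in the 10 µM cultures. The control cultures spread widely, and every treated culture lay above the highest of them. FAS rose at 5 µM vs. 0 µM by 1.58 on the log2 scale (standard error 0.42, limma adjusted p = 0.0275), a ratio of means of 2.72. The call was lost when any single 5 µM replicate was left out (adjusted p of 0.0884, 0.0926 and 0.0767), and without control replicate 2 the difference was 1.14 (adjusted p = 0.0253). The 10 µM cultures differed from the control by 1.16 (interval 0.11 to 2.21, adjusted p = 0.112) and from the 5 µM cultures by -0.42 (interval -0.93 to 0.086). FAS shares 380 exon bases with ACTA2 on the opposite strand, whose mean FPKM ± SD over 3 cultures was 3769 ± 1817, 7810 ± 1023 and 6139 ± 3035 in order of concentration. FAS also shares 917 exon bases with a noncoding gene on the opposite strand. The part of either gene in the FAS values was not tested.

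CASP8, on chromosome 2 from 202098166 to 202226559 on the plus strand, encodes the caspase that death receptors activate directly. Its FPKM was 318849, 318128 and 319753 in the control, 302357, 346706 and 310094 at 5 µM, and 307832, 338189 and 202604 in the 10 µM cultures. The treated values fell on both sides of the control values in each group. The log2 difference at 5 µM was 0.0011 with a 95% interval of -0.17 to 0.17 (limma adjusted p = 0.992), so a 2-fold change lies far outside it. This result depends on scaling: with libraries scaled by their FPKM total the difference was 0.29 (limma adjusted p = 0.0203), within the 2-fold limit. The 10 µM difference from the control was -0.21 (interval -0.67 to 0.26, adjusted p = 0.491), a value that rests on replicate 3, since without that culture it was 0.017. CASP8 was the most abundant of the 10 genes in the control, followed by TNFRSF10B and DAPK1 without overlap. TNFRSF10D, XAF1, TNFSF10 and TNFRSF10A came next with overlapping values, and APAF1, FAS and TNFRSF10C followed, each clear of its neighbours. CASP8 shares 343 exon bases with a noncoding gene on the same strand, and the part of that gene in its values was not tested.

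APAF1, on chromosome 12 from 99039068 to 99129211 on the plus strand, measured 19008, 19028 and 16337 FPKM in the control, 23058, 30523 and 29926 at 5 µM, and 20329, 18090 and 12711 in the 10 µM cultures. The 5 µM values lay above the others, and the control and 10 µM values overlapped. The log2 difference at 5 µM vs. 0 µM was 0.61 (standard error 0.16, limma adjusted p = 0.0257), within the 2-fold limit, with an adjusted p within 0.05 in 11 of 17 alternatives and not with the 9 samples in one fit. Between the treated groups it was -0.72 (interval -1.30 to -0.15, adjusted p = 0.132), while 10 µM and control cultures differed by -0.11 (adjusted p = 0.761). APAF1 shares 750 exon bases with ANKS1B on the opposite strand, and the part of that gene in its values was not tested.

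XAF1, on chromosome 17 from 6658766 to 6678966 on the plus strand, had the largest difference of the 10 genes at both concentrations against the control. Its FPKM was 87611, 77903 and 57567 in the control, 398204, 428331 and 280074 at 5 µM, and 258991, 331853 and 402318 at 10 µM. All treated values were at least 258991, and the highest control value was 87611. XAF1 rose by 2.31 on the log2 scale at 5 µM (standard error 0.22, limma adjusted p = 0.000654), a ratio of means of 4.96, and by 2.15 at 10 µM (standard error 0.22, adjusted p = 0.00377), a ratio of 4.45. The adjusted p was within 0.05 in 17 of 17 alternatives in each comparison. Tested against a change of 2-fold rather than 0, XAF1 alone of the 10 genes was called at 5 µM and none was called at 10 µM, where its adjusted p was 0.0533. The treated groups overlapped, with a difference of -0.16 (interval -0.69 to 0.38, adjusted p = 0.667). Divided by the FPKM of XIAP, the inhibitor that its protein binds, XAF1 stood at 0.375, 0.325 and 0.277 in the control, 2.03, 1.84 and 1.2 at 5 µM, and 1.6, 1.53 and 2.00 at 10 µM. This ratio was chosen after the values were seen, and XIAP itself was not called in any comparison. XAF1 shares 2535 exon bases with PRAL on the opposite strand, and the part of that gene in its values was not tested. The XAF1 windows shown above hold few CG dinucleotides.

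DAPK1, on chromosome 9 from 90112143 to 90323549 on the plus strand, measured 215703, 225311 and 237757 FPKM in the control, 305187, 261583 and 388974 at 5 µM, and 184878, 198892 and 142336 in the 10 µM cultures. The 3 groups did not overlap: the 5 µM values stood highest and the 10 µM values lowest. The log2 difference at 5 µM vs. 0 µM was 0.48 (interval 0.12 to 0.83, limma adjusted p = 0.0435), with an adjusted p within 0.05 in 10 of 17 alternatives. From 5 to 10 µM it was -0.86 (interval -1.32 to -0.39, adjusted p = 0.0513), which was -0.62 relative to the median of genes above 0 in all 6 libraries, and the adjusted p was within 0.05 in 5 of 17 alternatives. The 10 µM difference from the control was -0.38 (adjusted p = 0.122), or -0.15 relative to that median. DAPK1 was thus not called in any comparison. With 3 cultures against 3, the smallest p an exact permutation test can give is 0.1, and every comparison of the 10 genes whose groups did not overlap had that p.

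**Figure D4:**
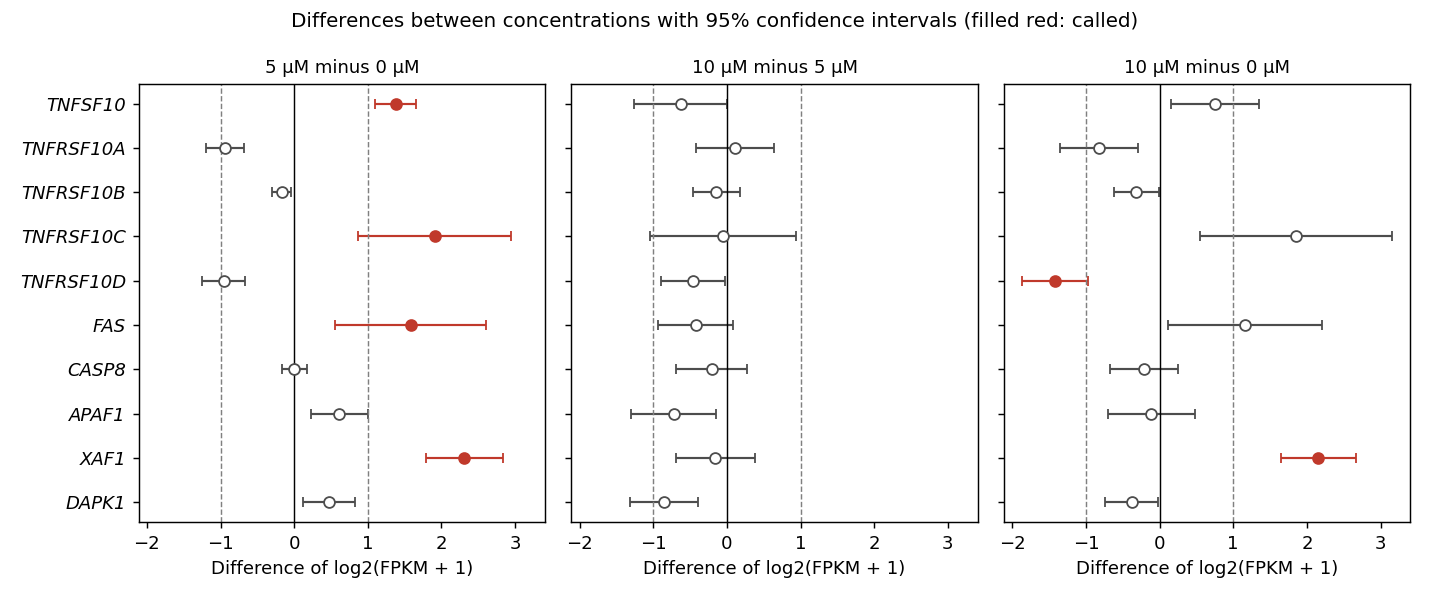
Differences of log2(FPKM + 1) (x axis) for the 10 genes (y axis) between the concentrations named above each panel, with 95% confidence intervals from limma and dashed lines at -1 and 1. Filled red points were called: 4 upward at 5 µM vs. 0 µM, none at 10 µM vs. 5 µM, and XAF1 and TNFRSF10D at 10 µM vs. 0 µM.

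The other genes of the route were read from a list of 32 genes: further ligands, receptors and soluble decoys, the adaptors and regulators of the receptor complex, the mitochondrial arm with the executioner caspases, caspase inhibitors, and kinases related to DAPK1. At 5 µM vs. 0 µM 3 of the 32 were called up, beside 14.1% of all genes, and 1 was called down, beside 2.17%. The median log2 difference of the list was 0.044, and that of all genes tested was 0.14. TNFRSF11B, which encodes osteoprotegerin, a soluble decoy that also binds TRAIL, rose by 1.93 (limma adjusted p = 0.00023). BIRC3, an inhibitor of apoptosis that restrains the receptor complex, rose by 1.53 (adjusted p = 0.00132). FASLG, the ligand of FAS, was listed at 0 in all 3 control libraries and had a mean of 1585 FPKM at 5 µM, which rests on about 23.9 estimated fragments over 3 libraries. DAPK2, a kinase related to DAPK1, fell by 1.21 (adjusted p = 0.00119).

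None of the 6 genes of the receptor complex was called in any of the 3 comparisons, in which at most 14.1% of all genes were called in one direction, so a count of 0 among so few genes is near the background. FADD, the adaptor that joins receptors to caspase-8, had a log2 difference of -0.81 at 5 µM (limma adjusted p = 0.00109) and -0.84 at 10 µM (adjusted p = 0.0364), within the 2-fold limit. CFLAR, the competitor of caspase-8 in the complex, had -0.091 (adjusted p = 0.473) and -0.36 (adjusted p = 0.138). None of the 8 genes of the mitochondrial arm and executioners was called either, against the same background.

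Between 5 and 10 µM 0 of the 32 were called up (0.129% of all genes) and 2 down (4.82%), with a median of -0.28 beside -0.31 over all genes tested. TNFRSF11B fell by 1.30 (limma adjusted p = 0.0181), and BIRC5, which encodes survivin, a protein of dividing cells, fell by 1.61 (adjusted p = 0.0209). Against the control, 1 was called up (4.07% of all genes) and 2 were called down (3.40%) at 10 µM, with a median of -0.29 beside -0.15 over all genes tested. TNFRSF25, a death receptor, rose by 1.01 (adjusted p = 0.0186), just over the 2-fold limit, while BIRC5 fell by 1.58 (adjusted p = 0.0286) and DAPK2 by 1.76 (adjusted p = 0.00497).

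**Figure D5:**
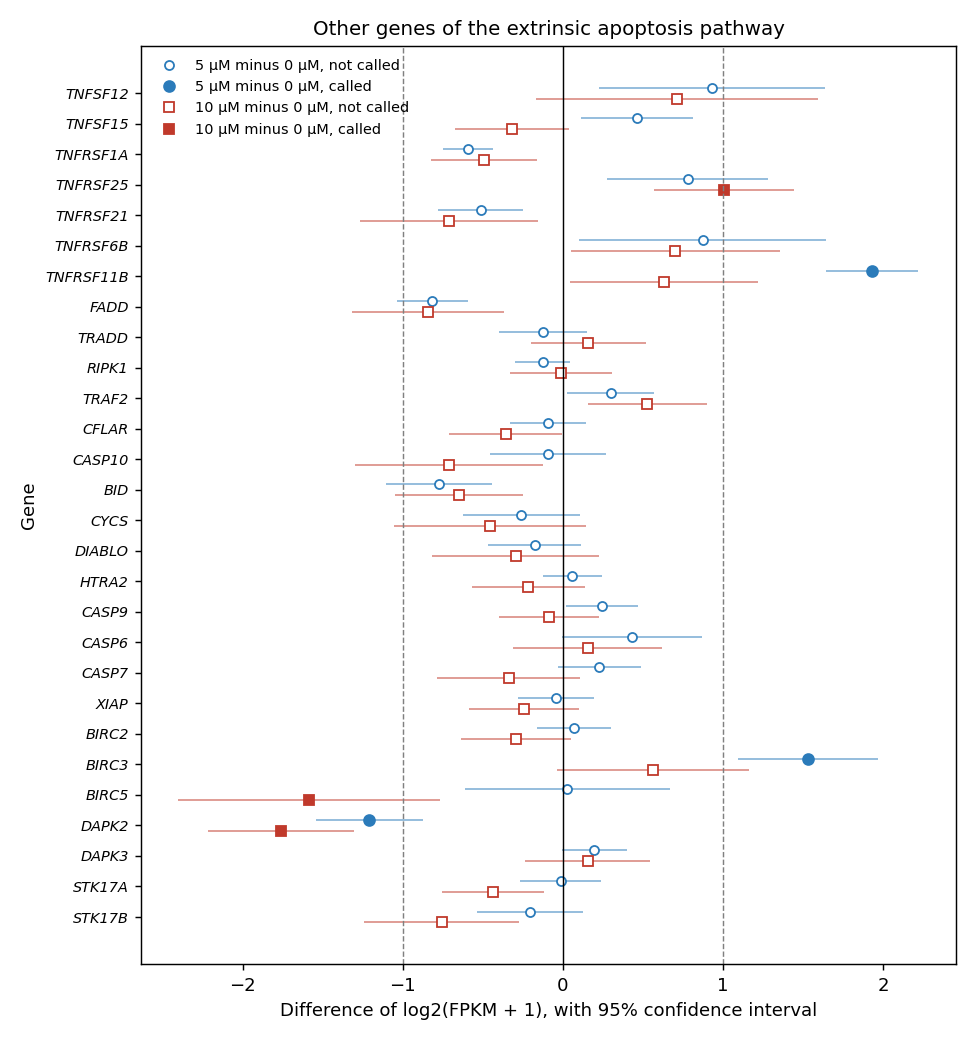
Differences of log2(FPKM + 1) (x axis) against the control for 28 other genes of the route (y axis), with 95% confidence intervals. FASLG, TNF and LTA, each listed at 0 in at least 1 library, are not drawn. Filled symbols were called, TNFRSF11B, BIRC3 and DAPK2 at 5 µM (circles) and TNFRSF25, BIRC5 and DAPK2 at 10 µM (squares).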

How the data were processed

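Paired-end RNA-Seq was performed on 9 HT-29 cultures. The authors mapped the reads with TopHat on hg19, computed FPKM with Cufflinks, and deposited one file of 24934 gene entries per sample. Groups came from the sample labels. Here FPKM of repeated symbols were summed and log2(FPKM + 1) was taken, so fold changes refer to that scale. Genes whose largest value reached 10 in either group were tested with limma 3.58.1 (R 4.3.3, eBayes with trend) on the 6 samples of each comparison, with Benjamini-Hochberg adjustment over all genes. The limit of 10 is low here, since the median FPKM above 0 was between 5.21e+04 and 7.87e+04 per library.

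The 10 genes, the lists of pathway genes and of markers, and the tests were chosen with earlier results of these data known. Genes named were the 10, the called genes of the pathway list, and for each called member the 3 genes nearest in profile over the 9 samples. FADD and CFLAR were named after their values were seen. The values of 1 gene of the pathway list are not reported here. Estimated fragments come from the steps of microRNA values and from annotated lengths. Of the microRNA values 46 of 46 were whole (tolerance 0.01), the smallest of each library by definition. Of 56 genes used to fit the length relation, 29 lay within 15% of it and 14 at about 2 steps. The estimates are approximate and were not tested as counts. The TNFRSF10C intervals are an exception, since they treat its rounded units, summed over the libraries of a group, as counts. Whether 1 step is a fragment or a mate is not given in the sources used here. Positions are from a GENCODE annotation of GRCh37. Alternatives were a pseudocount of 0.1 or 1000, other filters, other call limits, all 9 samples, a replicate block, other scalings, and leaving out each replicate.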

Additional observations from a re-analysis of the deposited data

How the results depend on the processing

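The calls of the 10 genes by limma were recomputed under each alternative, and the causes of the changes were not tested. At 5 µM vs. 0 µM the count called up (4) was 1 when tested against a 2-fold change (XAF1) and 3 to 4 with single replicates left out. The count called down (0) was 3 with no fold limit (TNFRSF10A, TNFRSF10B, TNFRSF10D) and 0 to 1 with replicates left out (TNFRSF10D without control replicate 1 or 5 µM replicate 3, TNFRSF10A without control replicate 2). At 10 µM vs. 0 µM the count called up (1) was 2 with a pseudocount of 1000, 10 FPKM required in each replicate of one group, all 9 samples in one fit, or median-of-ratios scaling. The called genes were XAF1 and TNFRSF10C each time. That count was 3 with total scaling (XAF1, TNFRSF10C and TNFSF10) and 0 against a 2-fold change. The count called down (1) was 2 with no fold limit, 0 against a 2-fold change, and 1 to 2 with replicates left out (2 without 10 µM replicate 2). Both counts between 5 and 10 µM were 0 in every alternative. Differences that changed sign, with the range over left-out replicates, were these. At 5 µM vs. 0 µM they were TNFRSF10B (0.12 with total scaling) and CASP8 (-0.059 to 0.040, below 0 without control or 5 µM replicate 2). For 10 µM vs. 5 µM they were TNFRSF10A (-0.10 without 10 µM replicate 2, up to 0.31), TNFRSF10B (0.060 with median-of-ratios scaling), TNFRSF10C (0.15 with that scaling, 0.035 with total scaling, -0.28 to 0.14 over left-out replicates), CASP8 (-0.35 to 0.016) and XAF1 (0.047 with median-of-ratios scaling, -0.34 to 0.010 over left-out replicates). For 10 µM vs. 0 µM they were TNFRSF10B (0.065 with total scaling), CASP8 (0.035 with median-of-ratios and 0.17 with total scaling, -0.35 to 0.017 over left-out replicates) and APAF1 (0.13, 0.27 and -0.25 to 0.085 in the same order).

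Same-numbered samples did not deviate together (correlations of -0.23 to 0.15 over 9 pairs, against -0.31 to 0.25 over 18 pairs of different numbers). These values give no sign that the replicate numbers pair the samples, but so few pairs cannot exclude it. With the replicate block, the TNFRSF10C call at 5 µM was lost (adjusted p = 0.0625), leaving 3 up, and the other calls of the 10 genes stood. Over all genes the counts up and down at 5 µM vs. 0 µM (2818 and 436) were 4263 and 3553 with no fold limit, 1463 and 70 against a 2-fold change, and 3585 and 167 with total scaling. For 10 µM vs. 5 µM (26 and 969) they were 64 and 1175, 7 and 374, and 42 and 947 in the same order, 11 and 407 with the block, 55 and 829 with median-of-ratios scaling, 16 and 842 with a minimum of 10 estimated fragments, and from 12 to 64 and from 176 to 1873 with replicates left out. Against the control, at 10 µM (771 and 644) they were 1020 and 1837, 145 and 16, and 1362 and 164, with 1174 and 768 for all 9 samples, 1125 and 284 with median-of-ratios scaling, and from 337 to 819 and from 165 to 1500 with replicates left out. Depth limits the genes that rest on few estimated fragments, such as TNFRSF10C, FASLG, TNF and LTA.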

Other observations

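The genes whose profile over the 9 samples was most like that of each called member were found among 15098 genes with all values at least 10, by the root mean square difference of centred log2(FPKM + 1). For TNFSF10 the nearest was CFB, complement factor B, at 0.091, against a standard deviation of TNFSF10 itself of 0.66, followed by PRSS23 and C9orf116 at 0.14 each. For XAF1 they were HES4 (0.21), TMEM145 (0.23) and SPINK5 (0.24). For TNFRSF10C they were the chemokine genes IL8 (0.20) and CXCL3 (0.25), and ULK4 (0.26). TNFRSF10D was nearest to MTSS1 (0.12), BCL6 (0.16) and TCTEX1D4 (0.16), and FAS to C11orf20 (0.21), C5orf56 (0.21) and ENKUR (0.22). The 9 samples fall into 3 groups, so a like profile is mainly a like order of the group means, and no test was made.

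The ratio of CASP8 to CFLAR, the caspase and its competitor, was 1.26, 1.19 and 1.46 in the control, 1.39, 1.53 and 1.24 at 5 µM, and 1.63, 1.51 and 1.21 at 10 µM, with overlapping groups. The ratio of TNFSF10 to TNFRSF10B, ligand to main receptor, was 0.278, 0.246 and 0.244 in the control, 0.689, 0.883 and 0.686 at 5 µM, and 0.379, 0.712 and 0.562 at 10 µM, above every control value in each treated culture. Both ratios were chosen after the values were seen and have no test.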
